A study of Mus musculus with 18 samples.

Results

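The 10 transcription factors described here act in T cell lineage choice and naive identity, and their RNA was measured in 18 sequencing libraries of mouse CD4 T cells. They were Zbtb7b, Gata3, Runx1, Runx3, Satb1, Bcl11b, Tcf7, Lef1, Myb and Id3, chosen by name as CD4 lineage and T cell identity factors. They are 10 of 55536 gene identifiers in the count table and 10 of the 15204 genes that passed the filter on low counts, so no member was lost to it. All mice were on the C57BL/6 background, and the sorted cells carried OTII, a transgenic T cell receptor that recognises an ovalbumin peptide and pairs with class II molecules. There were 6 groups of 3 libraries. Peripheral Cbl-b-/-W131AOTII cells lacked Cbl-b, a ubiquitin ligase that dampens signals from the T cell receptor, and carried W131A, a substitution that loosens the autoinhibited form of the kinase ZAP-70. Peripheral W131AOTII cells carried the substitution with Cbl-b intact, peripheral Cbl-b-/- OTII cells lacked Cbl-b with normal ZAP-70, and peripheral OTII cells had neither change. Thymic W131AOTII and thymic OTII cells were the matching CD4 single-positive thymocytes. The study asked which pathways Cbl-b controls in anergic T cells. Peripheral cells came from spleens and lymph nodes and were sorted for low CD44, for CD62L and Va2 and for absence of CD25, and thymocytes for Va2 and absence of CD25. The labels give 6 Cbl-b-/-W131AOTII mice with 2 to a group, 12 W131AOTII mice with 4 to a group, 3 Cbl-b-/- mice and 3 OTII mice, without ages and without saying which mice went into which library. The p-values therefore measure the spread between these libraries. In bulk RNA, fewer cells of a type and less RNA per cell cannot be told apart.

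Thymocytes that receive signals through class II molecules become CD4 T cells under Gata3 and Zbtb7b (also called ThPOK), while Runx3 directs the CD8 fate and represses Cd4. Satb1 and Bcl11b shape the chromatin of developing T cells, and Tcf7 (TCF-1) and Lef1 are related HMG-box factors that act in thymocytes and are kept on in naive cells. Myb acts through several thymocyte stages, and Id3 binds and blocks the E proteins and is induced by T cell receptor signals.

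All members are protein-coding genes, placed here on GRCm38 by GENCODE M21. The CD4 and CD8 lineage factors lie apart, with Zbtb7b (ENSMUSG00000028042) at chr3:89377644-89394776, Gata3 (ENSMUSG00000015619) at chr2:9857078-9890034, Runx1 (ENSMUSG00000022952) at chr16:92601466-92826149 and Runx3 (ENSMUSG00000070691) at chr4:135120652-135177990. The chromatin factors are Satb1 (ENSMUSG00000023927) at chr17:51736187-51833290 and Bcl11b (ENSMUSG00000048251) at chr12:107910403-108003602, and the HMG-box pair is Tcf7 (ENSMUSG00000000782) at chr11:52252371-52283014 and Lef1 (ENSMUSG00000027985) at chr3:131110471-131224356. The last 2 are Myb (ENSMUSG00000019982) at chr10:21124935-21160984 and Id3 (ENSMUSG00000007872) at chr4:136143497-136145755. Runx3, Lef1 and Id3 are on the plus strand and the others on the minus strand.

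Levels are in CPM, meaning counts divided by TMM-adjusted library size, and fold changes are on the log2 scale with the standard error (SE) of the edgeR quasi-likelihood fit. A change was called at a Benjamini-Hochberg adjusted p below 0.05 over all 15204 genes, and words such as rose and fell are kept for called changes. Library totals ran from 19708218 to 36218772 counts. Cblb was at 82.8 to 111 CPM in Cbl-b-/-W131AOTII libraries against 146 to 177 CPM in W131AOTII libraries, and at 51.0 to 90.5 CPM in Cbl-b-/- OTII against 122 to 142 CPM in OTII libraries. The deleted part of the gene is not given, so reads outside it remain countable. Cblb fell in both comparisons (log2 fold change -0.76, edgeR adjusted p = 0.0142, and -0.89, edgeR adjusted p = 0.00605). Zap70, which encodes ZAP-70, was at 183 to 223 CPM in Cbl-b-/-W131AOTII against 300 to 361 CPM in W131AOTII libraries. It fell in that comparison (-0.68, edgeR adjusted p = 0.0431) but did not pass in Cbl-b-/- OTII against OTII cells (-0.25, edgeR adjusted p = 0.492). Cd4 was at 938 CPM or more in every library and Cd8a at 27.9 CPM or less, while Cd8b1, the other CD8 chain, was at 109.8 to 198 CPM. A set of 3 libraries stood apart from their groups in earlier work on these data: peripheral W131AOTII replicate 2, where summed B cell markers reached 5532 CPM against 2362 and 2451 CPM in the other 2, Cbl-b-/- OTII replicate 2 and thymic OTII replicate 3.

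The sequence upstream of Myb and Runx3 is shown as an example of the motifs searched. Both genes were called in a genotype comparison, as were Tcf7, Bcl11b, Satb1 and Id3, and these windows were picked after the motif matches and the exon overlap were seen. Each line is the 250 bases before a RefSeq transcription start on GRCm38.p6, 5′ to 3′ on the gene's strand, and capitals mark motif matches on either strand. The Myb window is chr10:21160985-21161234 (minus strand) and holds no annotated exon. The Runx3 window is chr4:135120395-135120644 (plus strand), of which 53 bases lie in an exon of Gm16225, a long non-coding RNA gene on the other strand.
Myb: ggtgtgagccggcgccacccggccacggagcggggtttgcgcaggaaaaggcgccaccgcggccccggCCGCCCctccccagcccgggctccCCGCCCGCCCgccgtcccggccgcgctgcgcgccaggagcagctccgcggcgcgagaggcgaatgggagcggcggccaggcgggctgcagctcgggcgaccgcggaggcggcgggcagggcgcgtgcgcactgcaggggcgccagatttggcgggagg
Runx3: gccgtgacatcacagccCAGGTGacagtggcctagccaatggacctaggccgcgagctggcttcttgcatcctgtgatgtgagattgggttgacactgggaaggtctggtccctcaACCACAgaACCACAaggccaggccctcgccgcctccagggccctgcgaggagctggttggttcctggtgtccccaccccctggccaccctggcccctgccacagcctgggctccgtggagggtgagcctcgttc
A set of 7 motifs was searched on both strands in 32841 RefSeq windows of the same length. The RUNX motif, searched as TGTGGT, was in 14.0% of the windows. The motif shared by Tcf7 and Lef1, searched as CTTTGA, was in 13.8% of them. The E-box bound by E proteins, searched as CANNTG, was in 66.2%, and the GATA motif, searched as AGATAA, in 9.99%. The EGR motif, searched as GCGTGGGCG, was in 0.536%, the GC box, searched as GGGCGG, in 32.7%, and the ETS motif, searched as CCGGAA, in 12.0%. The GC box and the ETS motif were added after the first 5 had given few matches. The Myb capitals mark 3 GC box matches, of which 2 overlap, and the Runx3 capitals mark 2 RUNX matches and 1 E-box. The window of the other RefSeq start listed for Runx3, chr4:135152295-135152544, held 0 RUNX matches, 0 E-boxes and 3 GC box matches. These letters describe the windows and were not tied to any change in RNA. All 10 members had a RefSeq entry, and the first listed windows of Gata3, Satb1, Lef1 and Id3 lay wholly in annotated exons and are not printed.

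Set per kilobase of exon, Tcf7 was the most abundant member in OTII cells of the periphery, at 1374 CPM per kb. Bcl11b followed at 125, Id3 at 104, Satb1 at 83.4 and Lef1 at 83.1 CPM per kb. Gata3 stood at 24.0, Zbtb7b at 16.7, Runx3 at 14.4, Runx1 at 6.43 and Myb at 3.03 CPM per kb, so every other member was far below Tcf7. The length used was that of all annotated exons of a gene together, 19027 bases for Satb1, 12025 for Runx1 and 2625 for Tcf7. Before that division Satb1 was at 1587 CPM and Id3 at 186 CPM in these cells, so the order depends on it. Between groups, Id3 spanned the widest range, with the highest group mean 5.0 times the lowest, followed by Myb (3.82), Gata3 (3.68) and Satb1 (2.44). Lef1 varied least (1.21), and Bcl11b, Runx1 and Tcf7 stayed within 1.48, 1.5 and 1.53.

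**Figure D1:**
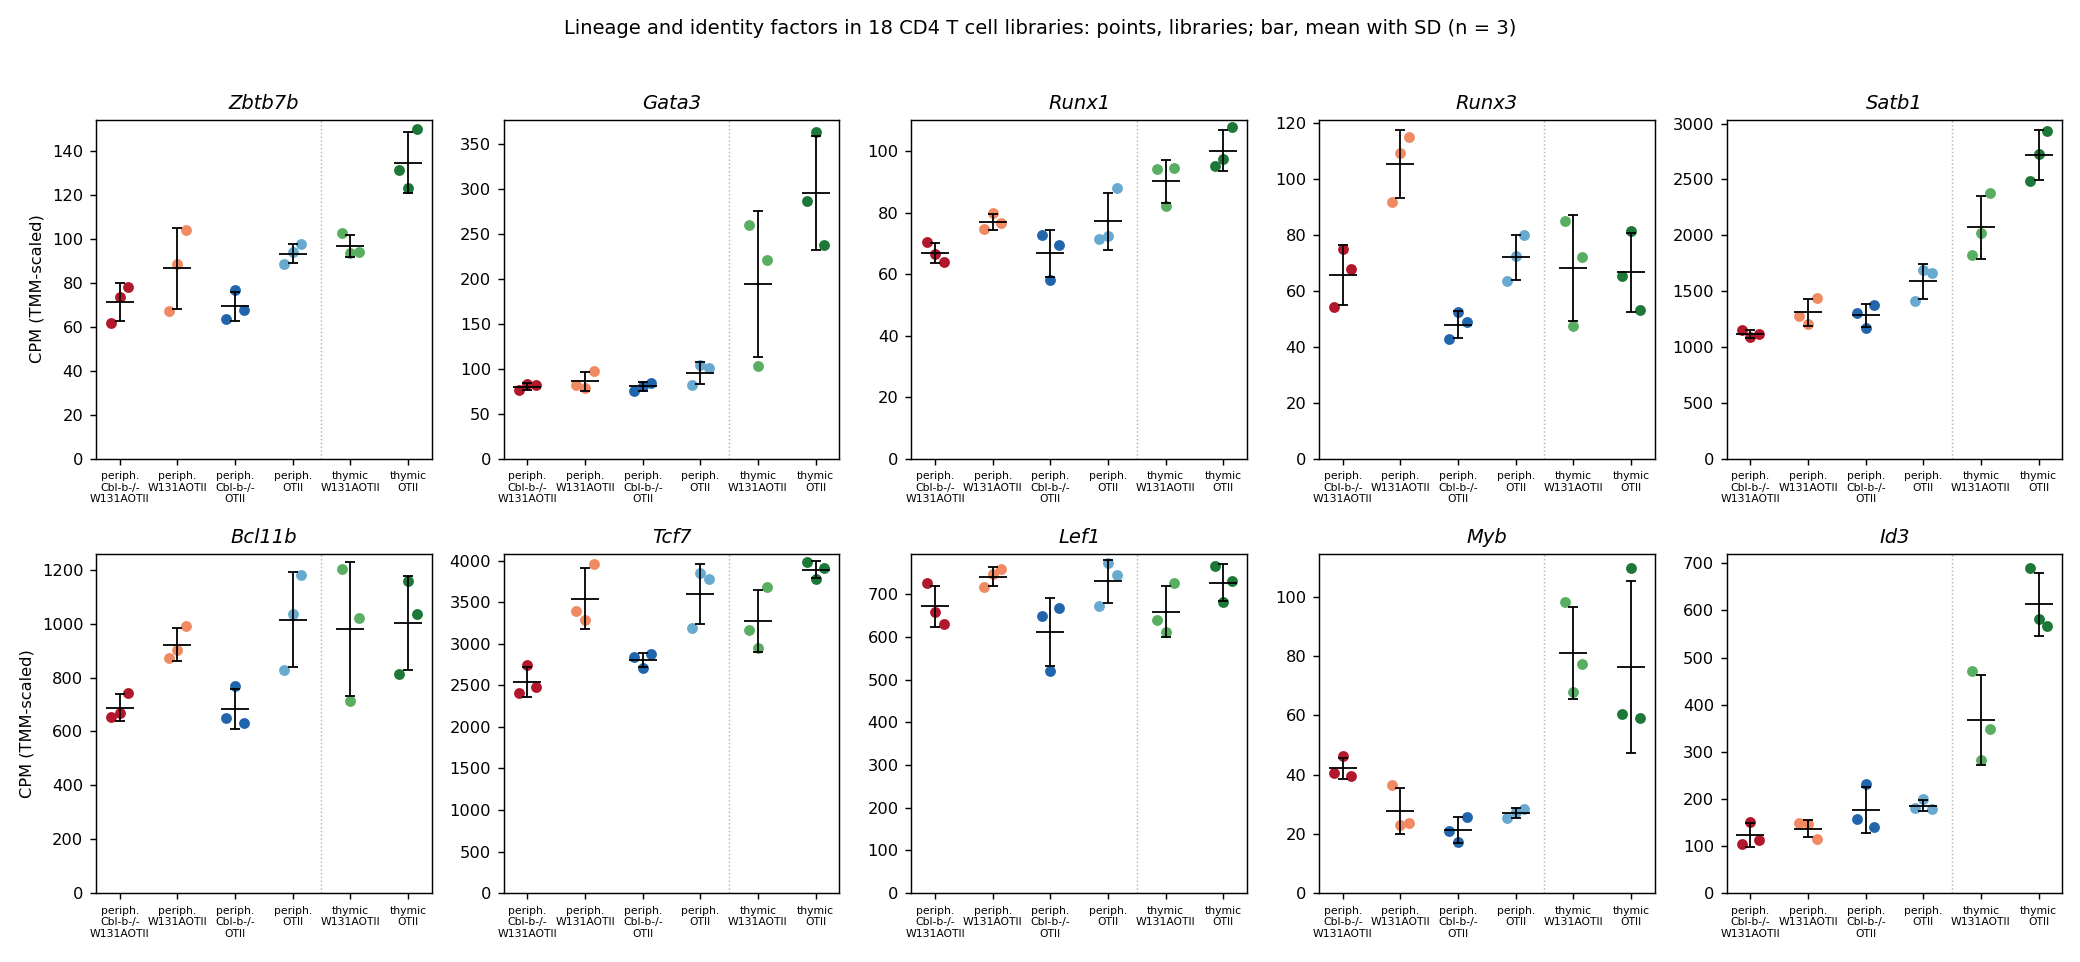
CPM of each member (y axis, 1 panel a gene) in the 6 groups (x axis); points are libraries, horizontal bars are means and error bars are SD (n = 3). Id3, Satb1, Gata3 and Myb sit higher in the thymic groups, Runx3 is highest in peripheral W131AOTII libraries, at 91.7 to 115 CPM, and neighbouring groups overlap throughout for Lef1.

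The periphery and the thymus were compared first, in OTII and in W131AOTII mice, to ask which factors differ between naive CD4 T cells and CD4 single-positive thymocytes. In OTII cells 6 of 10 members were lower in the periphery and 0 higher, where 18.3% of all genes were called and 10.6% were lower. The members' median log2 fold change was -0.45, beside -0.01 over all genes. In W131AOTII cells 4 members were lower and 1 higher, where 19.2% of all genes were called, 11.2% lower and 8.07% higher, with medians of -0.20 and -0.02. Id3, Gata3, Myb and Satb1 passed in both genotypes, and each kept its call in both under all 15 alternatives that were run. The OTII groups did not overlap for 6 members, where 39.5% of all genes did not, and the W131AOTII groups for 6, where 33.1% did not.

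Id3, the E protein inhibitor, was at 180, 199 and 179 CPM in peripheral OTII libraries (replicates 1 to 3), against 690, 582 and 567 CPM in thymic OTII libraries. In W131AOTII mice it was at 149, 146 and 116 CPM in the periphery, against 471, 282 and 348 CPM in the thymus. Every thymic library lay above every peripheral one in both genotypes. Id3 fell by 1.72 (SE 0.20, edgeR adjusted p = 5.16e-06) in OTII and by 1.42 (SE 0.20, edgeR adjusted p = 4.06e-05) in W131AOTII cells on the log2 scale.

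Gata3, which acts before Zbtb7b in CD4 commitment, was at 81.4, 104 and 100.2 CPM in peripheral OTII libraries, against 286, 362 and 237 CPM in thymic OTII libraries. It was at 81.5, 78.4 and 97.2 CPM in peripheral W131AOTII libraries, against 259, 103 and 220 CPM in thymic W131AOTII libraries. Thymic W131AOTII replicate 2 was the lowest thymic library for Gata3, just above the peripheral W131AOTII ones but below peripheral OTII replicate 2. It was the lowest of its group for every member but Satb1, and for Sox4 and Tox2 as well. The margin was narrow for Zbtb7b (93.8 against 94.1 CPM in replicate 3) and wide for Bcl11b (713 against 1204 and 1023 CPM in replicates 1 and 3). Gata3 fell by 1.63 (SE 0.23, edgeR adjusted p = 4.83e-05) in OTII and by 1.18 (SE 0.23, edgeR adjusted p = 0.000963) in W131AOTII cells, where the alternatives gave log2 fold changes of -1.47 to -0.93.

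Myb, a factor of thymocyte survival and CD4 differentiation, was at 25.2, 27.5 and 28.5 CPM in peripheral OTII libraries, against 60.3, 110 and 59.0 CPM in thymic OTII libraries. In W131AOTII mice it was at 36.6, 23.1 and 23.5 CPM in the periphery, against 98.2, 67.8 and 77.5 CPM in the thymus. The groups did not overlap in either genotype, and thymic OTII replicate 2 was the highest of all 18 libraries. Myb fell by 1.498 (SE 0.23, edgeR adjusted p = 0.000112) and by 1.55 (SE 0.23, edgeR adjusted p = 7.79e-05).

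Satb1, the chromatin organiser, was at 1410, 1686 and 1665 CPM in peripheral OTII libraries, against 2485, 2732 and 2936 CPM in thymic OTII libraries. It was at 1278, 1206 and 1442 CPM in peripheral W131AOTII libraries, against 1820, 2016 and 2376 CPM in thymic W131AOTII libraries. Satb1 was thus abundant in both tissues and separated them without overlap. It fell by 0.78 (SE 0.12, edgeR adjusted p = 0.000152) in OTII and by 0.66 (SE 0.12, edgeR adjusted p = 0.000627) in W131AOTII cells.

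Zbtb7b, which locks in the CD4 fate, was at 88.5, 93.9 and 97.5 CPM in peripheral OTII libraries, against 131.2, 123 and 150 CPM in thymic OTII libraries, and fell by 0.53 (SE 0.14, edgeR adjusted p = 0.0134). Runx1, an early T lineage factor, was at 71.4, 72.5 and 88.0 CPM in peripheral OTII libraries, against 95.4, 97.6 and 108 CPM in thymic OTII libraries, and fell by 0.38 (SE 0.12, edgeR adjusted p = 0.0324). Neither gene's groups overlapped, but the differences were small. In W131AOTII cells both missed the threshold, Zbtb7b at -0.16 (SE 0.14, edgeR adjusted p = 0.504) and Runx1 at -0.23 (SE 0.12, edgeR adjusted p = 0.209). The OTII call of Zbtb7b was lost without peripheral OTII replicate 1 (edgeR adjusted p = 0.0545) or thymic OTII replicate 3 (0.0617), and without the 3 libraries that stand apart (log2 fold change -0.46, edgeR adjusted p = 0.0701). That of Runx1 was lost without peripheral OTII replicate 1 or 2 (0.126 and 0.138) and without thymic OTII replicate 2 or 3 (0.0566 and 0.114). It was also lost with all libraries and no filter on low counts (0.162), and without the 3 libraries that stand apart (0.099).

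Runx3 went the other way in W131AOTII mice. It was at 91.7, 109 and 115 CPM in peripheral W131AOTII libraries, against 85.0, 47.5 and 72.0 CPM in thymic W131AOTII libraries, and rose by 0.63 (SE 0.19, edgeR adjusted p = 0.0249). In OTII mice it was at 63.7, 72.5 and 79.9 CPM in the periphery, against 65.3, 81.5 and 53.3 CPM in the thymus, and these groups overlapped (log2 fold change 0.11, SE 0.19, edgeR adjusted p = 0.763). The W131AOTII call was lost without peripheral replicate 2 or 3 (edgeR adjusted p = 0.0648 and 0.0927) and without thymic replicate 2 (0.113). It was also lost in a fit of all libraries of only the 2 groups (0.0502), and without the 3 libraries that stand apart (0.052).

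Bcl11b, Tcf7 and Lef1 did not pass in either genotype. Their log2 fold changes in OTII cells were 0.02 (SE 0.17), -0.11 (SE 0.12) and 0.01 (SE 0.12), and in W131AOTII cells -0.09 (SE 0.17), 0.12 (SE 0.12) and 0.17 (SE 0.12). The smallest edgeR adjusted p of these 6 values was 0.359. Bcl11b, needed to commit cells to the T lineage, averaged 1015 ± 176.5 CPM in peripheral OTII and 1003 ± 174 CPM in thymic OTII cells (SD, n = 3 each). Tcf7 averaged 3605 ± 361 and Lef1 730 ± 51.0 CPM in peripheral OTII cells, against 3893 ± 106.5 and 727 ± 43.2 CPM in thymic OTII cells. An antisense gene shares 13.75% of the Lef1 exon bases and another 6.26% of those of Myb, and with no stated strand setting for the counting, reads from those stretches cannot be assigned to a strand.

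**Figure D2:**
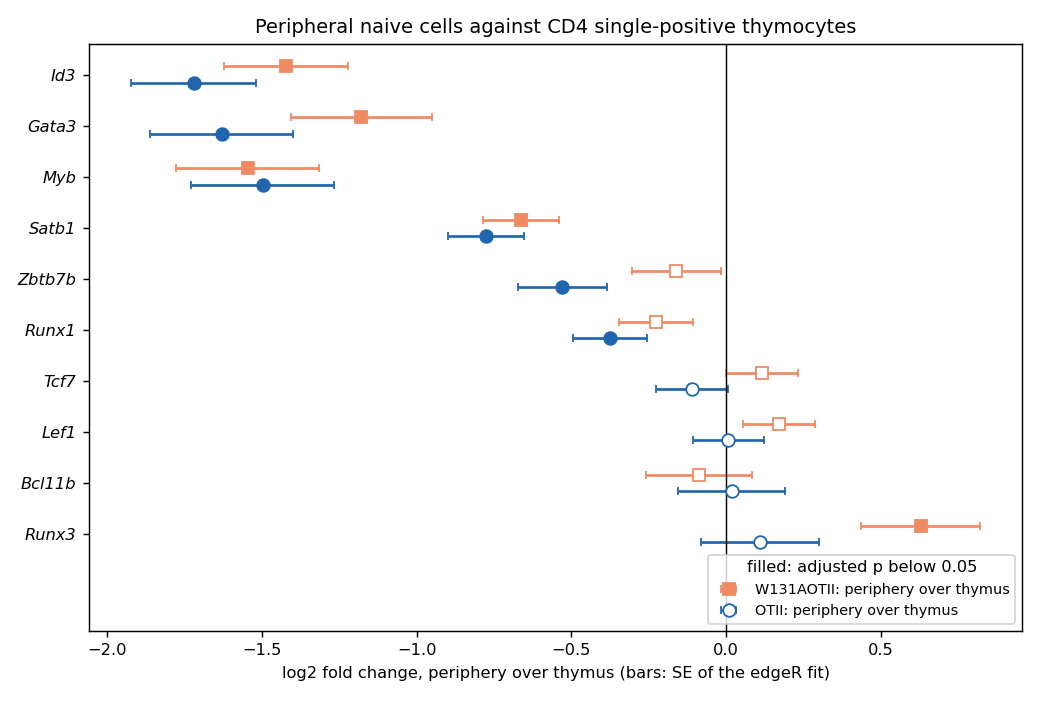
Log2 fold change of each member, periphery over thymus (x axis; bars, SE of the edgeR fit), in W131AOTII (squares) and OTII (circles) cells; filled symbols have an adjusted p below 0.05. Id3, Gata3, Myb and Satb1 lie to the left of 0 in both genotypes, and Runx3 lies to the right at 0.63 in W131AOTII cells.

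Whether the substitution changed the members differently in the 2 tissues was tested directly, as the W131A effect in the periphery minus that in the thymus. No member passed (0 of 10 by edgeR, by DESeq2 and by limma voom, 0 at an unadjusted edgeR p below 0.05), where 0.381% of all genes did. The difference for Runx3 was 0.52 (SE 0.27, edgeR adjusted p = 0.571) and for Gata3 0.45 (SE 0.32, edgeR adjusted p = 0.692).

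Other genes of these pathways were read from lists chosen with earlier results known. Among 28 T lineage partner factors, 12 fell and 1 rose in peripheral against thymic OTII cells (median log2 fold change -0.40, beside -0.01 over all genes), and the counts were again 12 and 1 in W131AOTII cells (median -0.22, beside -0.02). Tox, which CD4 lineage development needs, was at 98.1, 112 and 116 CPM in peripheral OTII libraries, against 321, 315 and 300.0 CPM in thymic OTII libraries (log2 fold change -1.52, SE 0.13, edgeR adjusted p = 8.67e-08). Hivep3 averaged 17.4 CPM in peripheral OTII and 77.4 CPM in thymic OTII cells (-2.16, SE 0.20, edgeR adjusted p = 4.04e-07). Id2, the other E protein inhibitor of T cells, averaged 19.7 CPM in peripheral OTII and 86.4 CPM in thymic OTII cells and also fell (-2.13, SE 0.23, edgeR adjusted p = 1.64e-06).

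Of 12 immature thymocyte genes, 8 fell and 1 rose in OTII cells and 9 fell in W131AOTII cells (medians -2.43 and -1.94). Ccr9, a homing receptor of thymocytes, averaged 112 CPM in peripheral OTII and 1018 CPM in thymic OTII cells. Of 20 naive T cell genes, 9 rose and 2 fell in OTII cells and 14 rose and 1 fell in W131AOTII cells (medians 0.39 and 0.58). S1pr1, the receptor for exit from the thymus, averaged 1361 CPM in peripheral OTII and 734 CPM in thymic OTII cells (log2 fold change 0.89, SE 0.12, edgeR adjusted p = 2.3e-05). Of 12 CD4 and CD8 lineage genes, 3 rose and 5 fell in OTII cells and 2 rose and 3 fell in W131AOTII cells. Prf1, the cytotoxic pore protein and a gene of the Runx3 programme in CD8 T cells, rose in both, to an average of 153 CPM in peripheral OTII against 19.1 CPM in thymic OTII cells and 285 CPM in peripheral W131AOTII against 57.1 CPM in thymic W131AOTII cells (edgeR adjusted p = 1.79e-08 and 1.84e-07).

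B cell markers moved with tissue too: 10 of 12 rose and 1 fell in OTII cells, with summed levels of 2276 to 2638 CPM in peripheral against 723 to 1020 CPM in thymic libraries. In W131AOTII cells 11 of 12 rose, at 2362 to 5532 CPM in peripheral against 667 to 1034 CPM in thymic libraries. Pax5 was at 0 in all thymic OTII libraries. Regulatory T cell markers were split in OTII cells, with 3 of 10 higher and 4 lower. Foxp3, which defines them, averaged 31.3 CPM in peripheral OTII and 10.9 CPM in thymic OTII cells, while Izumo1r averaged 57.3 CPM in peripheral OTII and 165 CPM in thymic OTII cells. Their summed levels were 259 to 267 CPM in peripheral OTII and 415 to 440 CPM in thymic OTII libraries. In W131AOTII cells 6 were higher and 1 lower, with sums of 687 to 760 CPM in peripheral and 381 to 587 CPM in thymic libraries.

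General T cell markers moved with tissue as well. In OTII cells 6 of 10 were lower and 0 higher in the periphery, with a median log2 fold change of -0.52 beside the members' -0.45, and sums of 18490 to 22500 CPM in peripheral against 25620 to 28250 CPM in thymic libraries. In W131AOTII cells 2 were lower and 1 higher (median -0.07, beside the members' -0.20). Of 10 NK and innate-like T cell markers 5 were lower and 1 higher in OTII cells, among them Trdc at an average of 62.8 CPM in peripheral OTII and 238 CPM in thymic OTII cells, and 1 was lower and 2 higher in W131AOTII cells. All 5 erythroid markers tested were lower in W131AOTII cells, with sums of 0.321 to 0.964 CPM in peripheral against 3.90 to 33.2 CPM in thymic libraries. Of 6 thymic stroma markers only Epcam and Ly75 passed the filter. The part of these markers, or of the cells that carry them, in the members' values was not tested.

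The profile of each of the 3 members with the widest range was matched against all genes tested, by the root mean square difference of log2 CPM centred on each gene's mean over 18 libraries. For Id3 the nearest were Zfp219 (0.229), Ptms (0.241) and Aldh7a1 (0.259), where the median over all genes was 0.949. For Gata3 they were Tox (0.251), Dyrk1b (0.261) and 1700025G04Rik (0.266), with a median of 0.870. For Myb the nearest lay farther off: 1190002N15Rik stood at 0.349, Usp11 at 0.351 and Dnmt3a, a DNA methyltransferase, at 0.360, with a median of 0.884. All 9 genes had higher means in both thymic groups than in any peripheral group, as did the 3 members. The genes were chosen for that likeness, so it is not a separate finding.

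**Figure D3:**
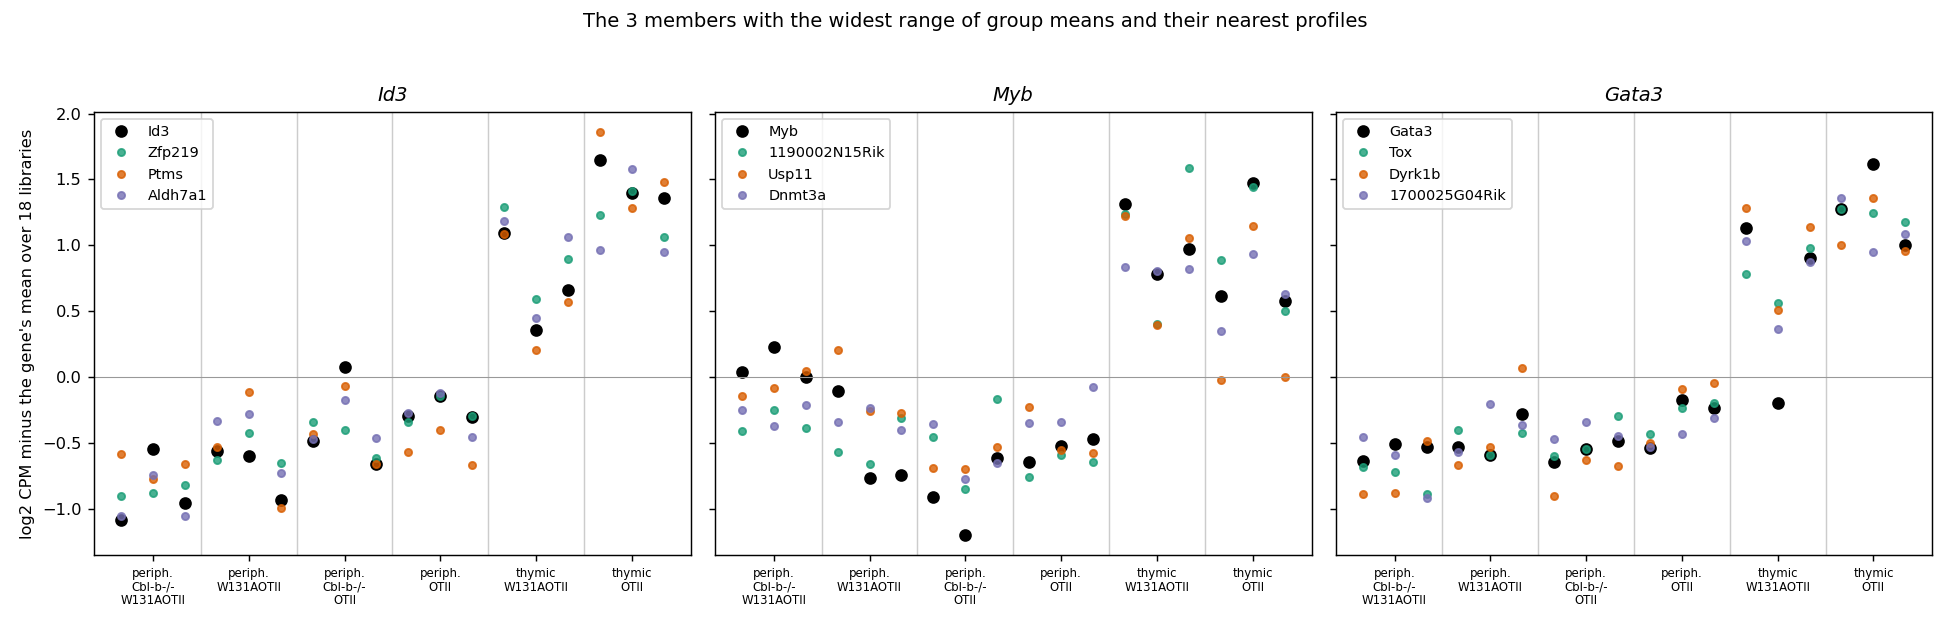
Log2 CPM minus the gene's mean over 18 libraries (y axis) for Id3, Myb and Gata3 (large black points) and the 3 nearest genes of each (small points), by library within the 6 groups (x axis). The 3 neighbours of Id3 keep within a root mean square difference of 0.259, and those of Myb lie farther off, at up to 0.360.

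The comparison of peripheral W131AOTII with OTII cells asked what the ZAP-70 substitution changed in naive cells. No member passed (0 by edgeR and 0 by DESeq2, 3 at an unadjusted edgeR p below 0.05), where 1.93% of all genes did. The groups did not overlap for 2 members, where 19.2% of all genes did not. Those 2 were Runx3 and Id3. Runx3 had the largest difference, at 91.7 to 115 CPM in W131AOTII against 63.7 to 79.9 CPM in OTII libraries (log2 fold change 0.55, SE 0.19, edgeR adjusted p = 0.223). Id3, at 116 to 149 CPM in W131AOTII against 179 to 199 CPM in OTII libraries, had a log2 fold change of -0.44 (SE 0.20, edgeR adjusted p = 0.467), and Satb1 had -0.28 (SE 0.12, edgeR adjusted p = 0.457). A fit of only these 2 groups called Runx3 and Id3 (edgeR adjusted p = 0.0156 and 0.0405), a fit with no filter called Runx3 (0.0238), and limma voom called Satb1 (0.0445).

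No difference in the CD4 lineage pair passed the test between these groups. Zbtb7b was at 67.2, 88.4 and 104 CPM in W131AOTII libraries, a wider spread than the 88.5 to 97.5 CPM of OTII libraries, and its log2 fold change was -0.11 (SE 0.14). Gata3 was at -0.15 (SE 0.23), Runx1 at 0.00 (SE 0.12), Tcf7 at -0.02 (SE 0.12), Lef1 at 0.02 (SE 0.12), Bcl11b at -0.14 (SE 0.17) and Myb at 0.04 (SE 0.23). Of the 12 CD4 and CD8 lineage genes 4 rose and 0 fell: Eomes and Tbx21, T-box factors of cytotoxic cells, Prf1 and Itgae. Prf1 was at 250, 269 and 337 CPM in W131AOTII libraries, against 132, 162 and 165 CPM in OTII libraries (log2 fold change 0.90, SE 0.20, edgeR adjusted p = 0.0156). Itgae was at 120, 45.0 and 41.0 CPM in W131AOTII libraries, against 16.9, 12.8 and 13.4 CPM in OTII libraries (edgeR adjusted p = 0.0169). Cd4 and Cd8a did not pass.

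Markers of other T cells moved with this comparison. Of 10 regulatory T cell markers 8 rose, and their summed level was 687 to 760 CPM in W131AOTII against 259 to 267 CPM in OTII libraries. Foxp3 averaged 149 CPM in W131AOTII and 31.3 CPM in OTII cells. Of 10 NK and innate-like T cell markers 3 rose, with sums of 377 to 580 CPM in W131AOTII against 118 to 136 CPM in OTII libraries. Zbtb16, which defines innate-like T cells, was at 0 in all peripheral OTII libraries and averaged 0.0899 CPM in W131AOTII libraries. That level is only a few reads a library, so little can be read from it. Their part in the Runx3 and Prf1 values was not tested.

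In the thymus, W131AOTII cells differed from OTII cells in 1 member, Id3, where 2.77% of all genes were called and 1.04% were lower. Id3 was at 471, 282 and 348 CPM in thymic W131AOTII libraries, against 690, 582 and 567 CPM in thymic OTII libraries, with no overlap. It fell by 0.74 (SE 0.20, edgeR adjusted p = 0.0486), a value close to the threshold. The call was lost without thymic W131AOTII replicate 2 or 3 (edgeR adjusted p = 0.122 and 0.157), without thymic OTII replicate 1, 2 or 3 (0.166, 0.0519 and 0.0839) and in a fit of only the 2 groups (0.117).

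In this comparison 8 members had a negative sign, with a median log2 fold change of -0.20 beside 0.01 over all genes, and 5 of 10 did not overlap, where 17.0% of all genes did not. Thymic W131AOTII replicate 2 was the lowest of its group for every member but Satb1. Leaving out 1 library at a time, the values of Bcl11b, Myb and Runx3 spanned 0. Zbtb7b, at 103, 93.8 and 94.1 CPM in thymic W131AOTII against 131.2, 123 and 150 CPM in thymic OTII libraries, had a log2 fold change of -0.48 (SE 0.14, edgeR adjusted p = 0.0874). Satb1 had -0.39 (SE 0.12, edgeR adjusted p = 0.0992) and Gata3 -0.61 (SE 0.23, edgeR adjusted p = 0.180). DESeq2 called Zbtb7b and Satb1 beside Id3 (DESeq2 adjusted p = 0.0434 and 0.0422). Gata3 passed without thymic W131AOTII replicate 1 (edgeR adjusted p = 0.0464). Of 20 naive T cell genes 4 fell and 0 rose, among them Klf2, a factor of T cell trafficking, at an average of 224 CPM in thymic W131AOTII and 482 CPM in thymic OTII cells (log2 fold change -1.11, SE 0.16, edgeR adjusted p = 0.000352). Of 28 partner factors 1 rose (Tle4) and 1 fell (Hivep3), and of 12 lineage genes 2 rose (Eomes and Prf1).

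Markers of T cells in general and of other cells moved with the thymic comparison. Of 10 general T cell markers 3 fell and 0 rose, with 9 negative signs and a median log2 fold change of -0.30 beside the members' -0.20. Cd5, an inhibitory surface receptor of T cells, averaged 192 CPM in thymic W131AOTII and 490 CPM in thymic OTII cells. Among 10 markers of regulatory T cells 4 were higher and 1 lower, and Foxp3 averaged 25.4 CPM in thymic W131AOTII and 10.9 CPM in thymic OTII cells. Zbtb16 rose, at an average of 10.5 CPM in thymic W131AOTII and 0.717 CPM in thymic OTII cells (log2 fold change 3.85, edgeR adjusted p = 0.000352). Of 5 erythroid markers tested 4 rose, with sums of 3.90 to 33.2 CPM in thymic W131AOTII against 0.395 to 0.802 CPM in thymic OTII libraries. Their part in the members' values was not tested.

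Loss of Cbl-b was examined on both backgrounds. In Cbl-b-/- OTII against OTII cells 1 member fell, Bcl11b, where 8.21% of all genes were called and 2.99% were lower. All 10 members had a negative sign, with a median of -0.33 beside 0.04 over all genes, and 6 did not overlap, where 30.3% of all genes did not. The sign of Id3 was not stable, as its log2 fold change ran from -0.32 to 0.05 leaving out 1 library at a time. Bcl11b was at 651, 770 and 633 CPM in Cbl-b-/- OTII libraries, against 829, 1036 and 1180 CPM in OTII libraries (log2 fold change -0.57, SE 0.17, edgeR adjusted p = 0.0486). The call was lost without OTII replicate 2 or 3 (edgeR adjusted p = 0.114 and 0.211) and without Cbl-b-/- OTII replicate 1, 2 or 3 (0.108, 0.0651 and 0.0815), with DESeq2 size factors in edgeR (0.0516), and without the 3 libraries that stand apart (0.0995). Log2 fold changes in this comparison fell with gene GC content (Spearman -0.27 across 15198 genes, which are not independent replicates), and once offsets corrected for GC content and length, Bcl11b was at -0.39 (edgeR adjusted p = 0.121).

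Runx3, Tcf7 and Zbtb7b lay close to the threshold. Runx3 was at 42.7, 52.5 and 48.7 CPM in Cbl-b-/- OTII libraries, against 63.7, 72.5 and 79.9 CPM in OTII libraries (log2 fold change -0.59, SE 0.19, edgeR adjusted p = 0.0627). Tcf7 was at 2842, 2710 and 2872 CPM in Cbl-b-/- OTII libraries, against 3190, 3847 and 3779 CPM in OTII libraries (-0.36, SE 0.12, edgeR adjusted p = 0.0594). Zbtb7b was at 63.6, 76.7 and 67.7 CPM in Cbl-b-/- OTII libraries, against 88.5 to 97.5 CPM in OTII libraries (-0.43, SE 0.14, edgeR adjusted p = 0.0682). These 3 genes did not overlap between the groups, and DESeq2 called all 3 (DESeq2 adjusted p = 0.033, 0.0218 and 0.0405). No member was called here by edgeR with offsets for GC content and length, with DESeq2 size factors or with a replicate block. The same held without the 3 libraries that stand apart. Satb1 was at -0.30 (SE 0.12, edgeR adjusted p = 0.123), Lef1 at -0.25 (SE 0.12, edgeR adjusted p = 0.175) and Myb at -0.35 (SE 0.23, edgeR adjusted p = 0.370). Gata3, Runx1 and Id3 were at -0.25, -0.21 and -0.07.

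Of the partner factors, Id2 and Ikzf2 rose and Bach2 and Tle4 fell in Cbl-b-/- OTII cells. Id2 was at 33.8, 31.0 and 34.7 CPM in Cbl-b-/- OTII libraries, against 17.1, 22.9 and 19.1 CPM in OTII libraries (log2 fold change 0.75, SE 0.22, edgeR adjusted p = 0.0429). Of 20 naive genes 1 rose (Slamf6) and 2 fell, S1pr1 and Foxo1, a factor that maintains naive T cells, at an average of 432 CPM in Cbl-b-/- OTII and 667 CPM in OTII cells (-0.63, SE 0.14, edgeR adjusted p = 0.014). Of 12 CD4 and CD8 lineage genes 2 rose, Gzmb and Tbx21. Of 10 regulatory T cell markers 4 rose, with sums of 358 to 476 CPM in Cbl-b-/- OTII against 259 to 267 CPM in OTII libraries.

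In Cbl-b-/-W131AOTII against W131AOTII cells 2 members fell, Runx3 and Tcf7, where 9.25% of all genes were called and 6.08% were lower. All members but Myb had a negative sign, with a median of -0.22 beside 0.03 over all genes, and 6 did not overlap, where 39.8% of all genes did not. The sign pattern did not hold for Zbtb7b once offsets corrected for GC content and length, which moved it from -0.28 to 0.02. Nor was the sign of Gata3 stable, at -0.18 to 0.007 leaving out 1 library at a time. Tcf7 was at 2405, 2743 and 2478 CPM in Cbl-b-/-W131AOTII libraries, against 3393, 3284 and 3957 CPM in W131AOTII libraries (log2 fold change -0.48, SE 0.12, edgeR adjusted p = 0.0204). Runx3 was at 54.2, 75.1 and 67.8 CPM in Cbl-b-/-W131AOTII libraries, against 91.7, 109 and 115 CPM in W131AOTII libraries (-0.68, SE 0.19, edgeR adjusted p = 0.0343). Every Cbl-b-/-W131AOTII library lay below every W131AOTII library for both genes. In the Runx3 window printed above the RUNX matches are a feature of the sequence, and these counts cannot say which start site was used.

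The call of Tcf7 was lost without W131AOTII replicate 3 (edgeR adjusted p = 0.112) and without Cbl-b-/-W131AOTII replicate 1 or 3 (0.104 and 0.0588). That of Runx3 was lost without W131AOTII replicate 2 or 3 (0.103 and 0.135) and without Cbl-b-/-W131AOTII replicate 1 or 3 (0.15 and 0.0661), and with library size as the only scaling (0.0538). Fold changes fell with GC content here as well (Spearman -0.402 across 15198 genes), and once offsets corrected for GC content and length, Runx3 was at -0.44 (edgeR adjusted p = 0.0716) while Tcf7 kept its call. Of 12 B cell markers 11 fell, with sums of 1658 to 1817 CPM in Cbl-b-/-W131AOTII against 2362 to 5532 CPM in W131AOTII libraries, and of 10 myeloid and dendritic markers tested 4 fell. Without the 3 libraries that stand apart Tcf7 was at -0.55 (edgeR adjusted p = 0.0587) and Runx3 at -0.67 (0.0915), so their sizes were close to those reported.

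Myb, the member with a positive sign, was at 40.5, 46.3 and 39.5 CPM in Cbl-b-/-W131AOTII libraries, against 36.6, 23.1 and 23.5 CPM in W131AOTII libraries, without overlap (log2 fold change 0.60, SE 0.23, edgeR adjusted p = 0.0967). W131AOTII replicate 1 was its highest library in that group, and without it Myb passed (0.84, edgeR adjusted p = 0.0352). Bcl11b, at 654, 668 and 745 CPM in Cbl-b-/-W131AOTII against 873, 904 and 991 CPM in W131AOTII libraries, had a log2 fold change of -0.42 (SE 0.17, edgeR adjusted p = 0.121). Zbtb7b was at -0.28 (SE 0.14), Satb1 at -0.23 (SE 0.12), Runx1 at -0.20 (SE 0.12), Id3 at -0.16 (SE 0.20), Lef1 at -0.14 (SE 0.12) and Gata3 at -0.10 (SE 0.23), none past the threshold. Scaling by library size alone moved the median of all genes to 0.18 in this comparison, and relative to that shift Gata3 and Lef1, at 0.06 and 0.01 under that scaling, stayed below it.

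Genes around these factors moved as well. Cd4 itself was at 938, 1043 and 1049 CPM in Cbl-b-/-W131AOTII libraries, against 1272, 1323 and 1678 CPM in W131AOTII libraries (log2 fold change -0.50, SE 0.12, edgeR adjusted p = 0.019). Prf1 also fell, at an average of 153 CPM in Cbl-b-/-W131AOTII and 285 CPM in W131AOTII cells (-0.90, SE 0.20, edgeR adjusted p = 0.0122). Of the partner factors Notch1, a receptor of early T lineage commitment, Ctnnb1, the beta-catenin that binds Tcf7 and Lef1, and Tle3, a co-repressor that also binds them, fell, and Id2 and Ikzf2 rose. Ctnnb1 averaged 224 CPM in Cbl-b-/-W131AOTII and 304 CPM in W131AOTII cells (-0.44, SE 0.12, edgeR adjusted p = 0.0289). Of 20 naive genes 1 rose and 4 fell.

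The comparisons with peripheral OTII cells share the same 3 OTII libraries, so their values are given side by side. Against OTII cells, Cbl-b-/-W131AOTII cells differed in 2 members, Tcf7 and Satb1, both lower, where 7.39% of all genes were called and 3.52% were lower. All members but Myb had a negative sign (median -0.32, beside 0.04 over all genes), and 7 did not overlap, where 39.7% of all genes did not. Satb1 was at 1148, 1085 and 1114 CPM in Cbl-b-/-W131AOTII libraries, against 1410, 1686 and 1665 CPM in OTII libraries (log2 fold change -0.51, SE 0.12, edgeR adjusted p = 0.0171). Tcf7 was at -0.50 (SE 0.12, edgeR adjusted p = 0.0134), with its Cbl-b-/-W131AOTII values of 2405 to 2743 CPM below the 3190 to 3847 CPM of OTII libraries. The call of Tcf7 was lost without OTII replicate 2 or 3 (0.0989 and 0.0953) and without Cbl-b-/-W131AOTII replicate 1 or 3 (0.0852 and 0.0543). That of Satb1 was lost without OTII replicate 2 or 3 (0.111 and 0.107) and without Cbl-b-/-W131AOTII replicate 1, 2 or 3 (0.0659, 0.0733 and 0.0592). Both calls held with offsets for GC content and length, and the Spearman correlation with GC content was -0.313. Under these offsets Runx3 changed sign, from -0.13 to 0.08.

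Other members came near the threshold in that comparison without passing it: Bcl11b (-0.56, SE 0.17, edgeR adjusted p = 0.0538), Id3 (-0.60, SE 0.20, edgeR adjusted p = 0.0691), Myb (0.64, SE 0.23, edgeR adjusted p = 0.0932) and Zbtb7b (-0.39, SE 0.14, edgeR adjusted p = 0.101). Of 28 partner factors 3 rose and 5 fell. Id2 averaged 52.9 CPM in Cbl-b-/-W131AOTII and 19.7 CPM in OTII cells (1.42, SE 0.22, edgeR adjusted p = 0.000535), and Ikzf2, a regulatory T cell marker as well, had the smallest adjusted p (3.22, SE 0.38, edgeR adjusted p = 3.49e-05). Patz1 and Ctnnb1 were among those that fell (edgeR adjusted p = 0.0121 and 0.021). Of 10 regulatory T cell markers 8 rose, with sums of 676 to 787 CPM in Cbl-b-/-W131AOTII against 259 to 267 CPM in OTII libraries.

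Against Cbl-b-/- OTII cells, Cbl-b-/-W131AOTII cells differed in Myb alone, where 1.89% of all genes were called and 0.802% were higher. Myb was at 40.5, 46.3 and 39.5 CPM in Cbl-b-/-W131AOTII libraries, against 20.95, 17.1 and 25.7 CPM in Cbl-b-/- OTII libraries, and rose by 0.98 (SE 0.23, edgeR adjusted p = 0.0295). The Cbl-b-/-W131AOTII values lay below the 59.0 CPM of the lowest thymic library. The call was lost without Cbl-b-/- OTII replicate 1 or 2 (0.0905 and 0.13) and without Cbl-b-/-W131AOTII replicate 1, 2 or 3 (0.0651, 0.103 and 0.0612), and without the 3 libraries that stand apart (0.0911), while the log2 fold change stayed between 0.85 and 1.16 over all alternatives. The groups did not overlap for 3 members, Myb, Runx3 and Satb1, where 21.1% of all genes did not. Runx3 was at 0.45 (SE 0.19, edgeR adjusted p = 0.231), Satb1 at -0.20 (SE 0.12, edgeR adjusted p = 0.416) and Id3 at -0.53 (SE 0.20, edgeR adjusted p = 0.179).

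**Figure D4:**
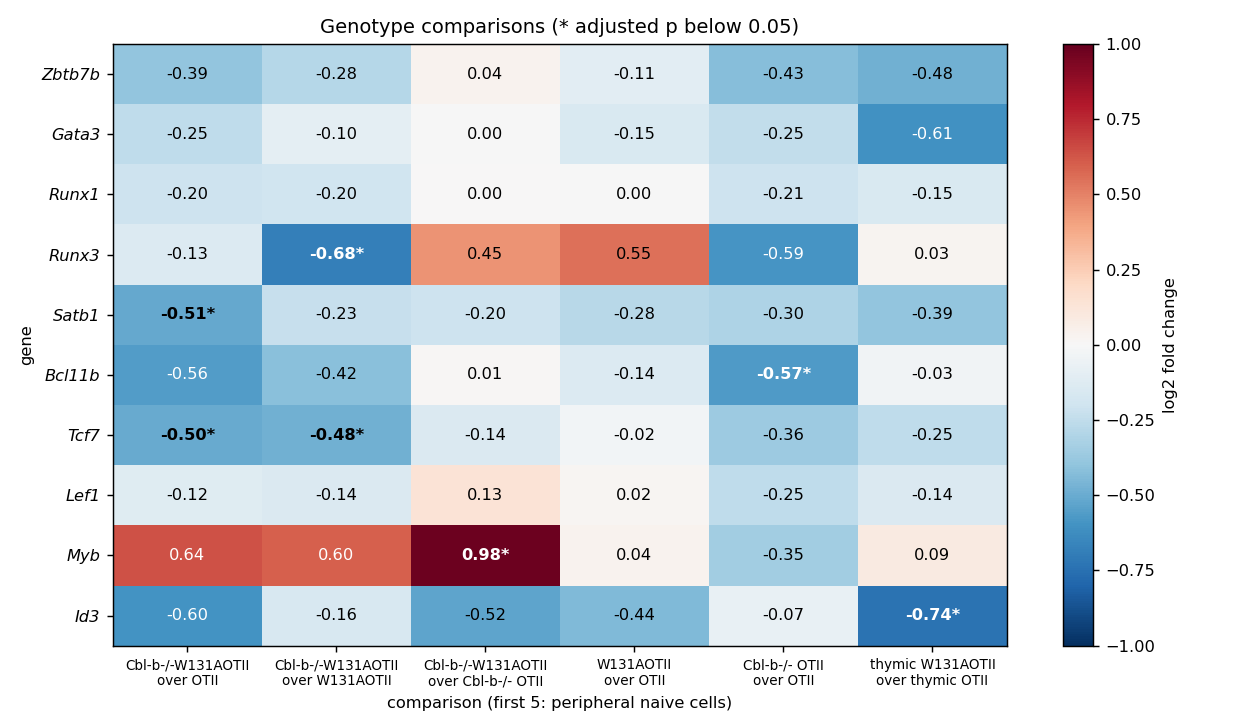
Log2 fold change of each member (rows) in 5 genotype comparisons of peripheral cells and 1 of thymocytes (columns), with the first-named genotype over the second; colour runs from -1 (blue) to 1 (red), and an asterisk marks an adjusted p below 0.05. Of the values with an asterisk, Myb at 0.98 is the only one above 0.

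The interaction of W131A and Cbl-b-/- in the periphery, which asks whether the W131A effect differs without Cbl-b, was not called for any member (0 by edgeR and 0 by DESeq2, 1 at an unadjusted edgeR p below 0.05), where 0.631% of all genes were. Myb had the largest value, 0.95 (SE 0.32, edgeR adjusted p = 0.257), and it passed by limma voom (0.0348) and with no filter on low counts (0.00738). The other 9 values lay between -0.12 and 0.15. In the order of group means Runx3 ran from peripheral W131AOTII (105 CPM) through OTII (72.0), thymic W131AOTII (68.2), thymic OTII (66.7) and Cbl-b-/-W131AOTII (65.7) to Cbl-b-/- OTII (48.0 CPM), and only the first and last of these did not overlap with their neighbour. Lef1 ran from 741 CPM in peripheral W131AOTII to 612 CPM in Cbl-b-/- OTII cells, and every neighbouring pair in its order overlapped.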

How the data were processed

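The authors deposited raw counts per gene for 18 libraries, 3 in each of 6 groups, of 55536 Ensembl identifiers. Per the submitters' processing notes, STAR 2.7.2, DESeq2 and the build GRCm38 were used. Per the labels' protocols the reads were single-end and 50 bases long. The sources used here do not state the counting step, its annotation, strand setting or filters.

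All identifiers matched GENCODE M21, which gave names, lengths and positions. Genes were filtered with filterByExpr, which left 15204, and scaled by TMM. All 18 libraries were fitted in 1 model of 6 groups with edgeR 4.0.16 (robust quasi-likelihood, R 4.3.3, 12 residual degrees of freedom), with Benjamini-Hochberg adjustment over all genes tested in each of 10 comparisons and a threshold of 0.05. The SE is the log2 fold change divided by the root of the F statistic. Log2 CPM for profiles used a prior count of 2. The scripts were tested on simulated data. Alternatives were DESeq2 1.42.0, limma voom (limma 3.58.1), other scalings, no filter, offsets for GC content and length, fits of only the groups compared, a replicate block and libraries left out. No pair of libraries agreed within sampling noise.

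The members and the lists were chosen with earlier results of these data known. Named genes were all members, up to 4 genes a list by smallest adjusted p, and the 3 nearest profiles of the 3 members with the widest range. Sox4 and Tox2 in 1 thymic library, Id2 beside Ikzf2, Cd8a, Cd8b1, Foxp3, Izumo1r, Trdc, Cd5, Zbtb16, Pax5 and Zap70 were named after their values were seen. Promoter sequences are from RefSeq on GRCm38.p6.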

Additional observations from a re-analysis of the deposited data

How the results depend on the processing

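Id3, Gata3, Myb and Satb1 kept their calls between periphery and thymus in both genotypes under every alternative run, while the genotype calls were lost under several. Of 1620 member values under an alternative, 1396 kept direction and side of the threshold, 56 lost a call, 55 gained one and 113 changed sign. Every sign change was between values not past the threshold, and the largest such value was 0.283 in size. Why calls changed was not tested. With limma voom the number of members called was 1 in W131AOTII over OTII, 4 in Cbl-b-/-W131AOTII over W131AOTII, 6 in Cbl-b-/- OTII over OTII, 3 in Cbl-b-/-W131AOTII over Cbl-b-/- OTII, 7 in Cbl-b-/-W131AOTII over OTII, 3 in thymic W131AOTII over thymic OTII, 1 in the interaction. More of all genes were also called by limma voom in each of these. In Cbl-b-/- OTII over OTII it called 2795 higher and 2672 lower, against 1249 in either direction as reported. In Cbl-b-/-W131AOTII over OTII it called 2371 higher and 2325 lower, against 1123 in either direction. With no filter on low counts the number of members called was 1 in W131AOTII over OTII, 4 in Cbl-b-/-W131AOTII over W131AOTII, 2 in Cbl-b-/- OTII over OTII, 2 in Cbl-b-/-W131AOTII over Cbl-b-/- OTII, 5 in Cbl-b-/-W131AOTII over OTII, 2 in thymic W131AOTII over thymic OTII, 5 in place of 6 in OTII over thymic OTII, 1 in the interaction. More of all genes were called with no filter in each of these, with 934 higher and 882 lower in Cbl-b-/-W131AOTII over OTII. In fits of only the groups compared the number of members called was 2 in W131AOTII over OTII, 4 in Cbl-b-/-W131AOTII over W131AOTII, 2 in Cbl-b-/- OTII over OTII, 6 in Cbl-b-/-W131AOTII over OTII, 0 in thymic W131AOTII over thymic OTII, 4 in place of 5 in W131AOTII over thymic W131AOTII. Of all genes, these fits called 1905 higher and 1973 lower in Cbl-b-/-W131AOTII over OTII. They called 546 and 480 in Cbl-b-/- OTII over OTII, and 101 and 39 in thymic W131AOTII over thymic OTII. Without the 3 libraries that stand apart the number of members called was 0 in Cbl-b-/-W131AOTII over W131AOTII, 0 in Cbl-b-/- OTII over OTII, 0 in Cbl-b-/-W131AOTII over Cbl-b-/- OTII, 3 in place of 2 in Cbl-b-/-W131AOTII over OTII, 4 in place of 6 in OTII over thymic OTII, 4 in place of 5 in W131AOTII over thymic W131AOTII. Of all genes, 60 were then higher and 193 lower in Cbl-b-/-W131AOTII over W131AOTII, and 206 and 105 in Cbl-b-/- OTII over OTII. With offsets for GC content and length the number of members called was 1 in Cbl-b-/-W131AOTII over W131AOTII, 0 in Cbl-b-/- OTII over OTII, 3 in Cbl-b-/-W131AOTII over OTII, 2 in thymic W131AOTII over thymic OTII. Of all genes, these offsets gave 524 higher and 262 lower in Cbl-b-/- OTII over OTII, and 404 and 242 in thymic W131AOTII over thymic OTII. With DESeq2 the number of members called was 4 in Cbl-b-/- OTII over OTII, 4 in Cbl-b-/-W131AOTII over OTII, 3 in thymic W131AOTII over thymic OTII. More of all genes were called by DESeq2 in each of these, with 1257 higher and 812 lower in Cbl-b-/- OTII over OTII. With library size as the only scaling the number of members called was 3 in Cbl-b-/- OTII over OTII, 3 in Cbl-b-/-W131AOTII over OTII. Of all genes, this scaling gave 932 higher and 559 lower in the former, and 833 and 339 in the latter. With DESeq2 size factors in edgeR the number of members called was 0 in Cbl-b-/- OTII over OTII. With the replicate block the number of members called was 0 in Cbl-b-/- OTII over OTII, 0 in Cbl-b-/-W131AOTII over Cbl-b-/- OTII. Leaving out 1 library at a time, the number called ran from 0 to 0 in W131AOTII over OTII, from 0 to 3 in Cbl-b-/-W131AOTII over W131AOTII, from 0 to 1 in Cbl-b-/- OTII over OTII, from 0 to 1 in Cbl-b-/-W131AOTII over Cbl-b-/- OTII, from 0 to 3 in Cbl-b-/-W131AOTII over OTII, from 0 to 2 in thymic W131AOTII over thymic OTII, from 4 to 6 in OTII over thymic OTII, from 4 to 5 in W131AOTII over thymic W131AOTII, from 0 to 0 in the interaction, from 0 to 0 in periphery minus thymus. With DESeq2 the sign changed in the interaction for Runx1 (-0.0105), in Cbl-b-/-W131AOTII over Cbl-b-/- OTII for Runx1 (-0.0007), and in W131AOTII over OTII for Runx1 (0.0097). With DESeq2 size factors in edgeR the sign changed in the interaction for Runx1 (-0.0105), in Cbl-b-/-W131AOTII over Cbl-b-/- OTII for Runx1 (-0.0008), and in W131AOTII over OTII for Runx1 (0.0097). With library size as the only scaling the sign changed in the interaction for Id3 (0.0583), for Runx3 (0.0409), for Tcf7 (0.0135), in Cbl-b-/-W131AOTII over Cbl-b-/- OTII for Gata3 (0.1001), in Cbl-b-/-W131AOTII over OTII for Lef1 (0.0005), in Cbl-b-/-W131AOTII over W131AOTII for Gata3 (0.0561), for Lef1 (0.0096), in OTII over thymic OTII for Bcl11b (-0.0373), for Lef1 (-0.0543), and in W131AOTII over OTII for Lef1 (-0.0091). With limma voom the sign changed in the interaction for Id3 (0.1347), for Runx1 (-0.0645), for Runx3 (0.1581), in Cbl-b-/-W131AOTII over Cbl-b-/- OTII for Gata3 (0.0833), for Runx1 (-0.1002), in W131AOTII over OTII for Lef1 (-0.0), and in W131AOTII over thymic W131AOTII for Tcf7 (-0.0006). With no filter on low counts the sign changed in Cbl-b-/-W131AOTII over Cbl-b-/- OTII for Gata3 (0.0181), and in W131AOTII over OTII for Runx1 (0.0104). With offsets for GC content and length the sign changed in periphery minus thymus for Bcl11b (0.0022), for Myb (0.1048), in the interaction for Id3 (0.1205), for Lef1 (-0.0148), for Runx1 (-0.1682), for Satb1 (-0.1775), in Cbl-b-/-W131AOTII over Cbl-b-/- OTII for Bcl11b (-0.0444), for Runx1 (-0.0966), in Cbl-b-/-W131AOTII over OTII for Runx3 (0.0758), in Cbl-b-/-W131AOTII over W131AOTII for Zbtb7b (0.0208), in OTII over thymic OTII for Bcl11b (-0.0353), for Lef1 (-0.1088), in W131AOTII over OTII for Runx1 (0.0715), and in thymic W131AOTII over thymic OTII for Myb (-0.0221), for Runx3 (-0.0018). In fits of only the groups compared the sign changed in Cbl-b-/-W131AOTII over Cbl-b-/- OTII for Gata3 (0.0157). With the replicate block the sign changed in W131AOTII over OTII for Runx1 (0.0026). Without the 3 libraries that stand apart the sign changed in periphery minus thymus for Myb (0.2484), in the interaction for Id3 (0.2089), for Runx1 (-0.0647), for Satb1 (-0.0502), in Cbl-b-/-W131AOTII over Cbl-b-/- OTII for Gata3 (0.0098), for Runx1 (-0.0799), in OTII over thymic OTII for Lef1 (-0.0003), for Runx3 (-0.0384), in W131AOTII over OTII for Tcf7 (0.0416), and in thymic W131AOTII over thymic OTII for Myb (-0.087), for Runx3 (-0.127). Leaving out 1 library at a time, the log2 value spanned 0 in periphery minus thymus for Bcl11b (-0.2676 to 0.0678), for Myb (-0.3794 to 0.1166), in the interaction for Id3 (-0.263 to 0.1572), for Lef1 (-0.0013 to 0.1846), for Runx1 (-0.0922 to 0.0618), for Runx3 (-0.2112 to 0.016), for Zbtb7b (-0.0193 to 0.3339), in Cbl-b-/- OTII over OTII for Id3 (-0.3233 to 0.0502), in Cbl-b-/-W131AOTII over Cbl-b-/- OTII for Bcl11b (-0.0371 to 0.1024), for Gata3 (-0.0454 to 0.0552), for Runx1 (-0.0838 to 0.0694), for Zbtb7b (-0.0226 to 0.1353), in Cbl-b-/-W131AOTII over W131AOTII for Gata3 (-0.1751 to 0.007), in OTII over thymic OTII for Bcl11b (-0.1152 to 0.1333), for Lef1 (-0.045 to 0.0488), for Runx3 (-0.0413 to 0.2794), in W131AOTII over OTII for Lef1 (-0.021 to 0.0766), for Myb (-0.1989 to 0.1617), for Runx1 (-0.0439 to 0.1096), for Tcf7 (-0.1184 to 0.0422), for Zbtb7b (-0.2696 to 0.0597), in W131AOTII over thymic W131AOTII for Bcl11b (-0.2616 to 0.0739), for Zbtb7b (-0.3128 to 0.024), and in thymic W131AOTII over thymic OTII for Bcl11b (-0.1921 to 0.143), for Myb (-0.0685 to 0.4251), for Runx3 (-0.1461 to 0.2247). Same-numbered libraries correlated between -0.304 and 0.205 in their deviations from group means. These values cannot show whether libraries of different groups came from the same mice, which the labels do not give. The groups were fitted as independent. With the replicate block Bcl11b in Cbl-b-/- OTII over OTII was at -0.5582 (edgeR adjusted p = 0.0632) and Myb in Cbl-b-/-W131AOTII over Cbl-b-/- OTII at 0.9772 (0.0524), and the other counts of calls were the same. With 3 libraries a group, small differences of the members could go uncalled.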
